A study of Mus musculus with 2 samples.

Results

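Plasmacytoid dendritic cells (pDCs) were described in mouse 4T1 mammary tumours. A barcode was chosen by a rule on its own RNA: at least 3 Siglech and 1 Tcf4 UMIs, no Cd3e or Epcam UMI, and fewer than 5 C1qa, C1qb and C1qc UMIs per 10000. It also needed at least 500 UMIs, 200 genes and at most 20% mitochondrial UMIs. A UMI (unique molecular identifier) counts 1 captured RNA molecule. The rule found 101 pDCs among 15288 barcodes, 81 of 6962 filtered knockout-library cells and 20 of 7747 filtered control-library cells.

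The study set tumours of 4T1 cells carrying a K2 guide RNA (K2-KO, the knockout of Kindlin-2) against tumours of 4T1 cells with a control guide and labelled wild type. The 4T1 line is a mouse model of triple-negative breast cancer. Female BALB/c mice received the cells in the mammary fat pad. Tumours of 150 mm3 were digested over 45 min, and viable cells, sorted on mCherry, entered the 10x Genomics 3' droplet protocol. Each group had 1 library, so no difference below was tested between tumours, and the number of tumours in a library is not stated in the labels. The edited cells were the tumour cells, and the pDCs came from the host mice.

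The libraries held 180774106 UMIs (knockout) and 214163620 UMIs (control). Fermt2, the gene of Kindlin-2, stood at 18.0 CPM (95% interval 17.2 to 18.9) in knockout tumour cells and 41.0 CPM (39.9 to 42.1) in control tumour cells, where CPM is UMIs per 1000000, summed over the cells of a class. Knockout pDCs had 0 Fermt2 UMIs and control pDCs had 19, all in cells of more than 30000 UMIs. Printed intervals are exact 95% intervals, limits for a count of 0 are set at 3 counts, and both cover counting error only. The match of barcodes to libraries rests on their suffix alone, and 13 barcode sequences occurred in both libraries, 1 of them in a pDC.

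Plasmacytoid dendritic cells are bone-marrow-derived cells that patrol blood and lymphoid tissue. Their endosomal receptors TLR7 and TLR9 sense viral RNA and DNA, pass the signal through MyD88 and IRF7, and can release large amounts of type I interferon. The transcription factor TCF4 sets up and maintains this fate. In tumours they have been described both as sources of interferon and as tolerogenic cells.

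The upstream sequences of 3 genes that mark the cells are shown because all hold an E-box. This is the kind of hexamer that E proteins such as TCF4 bind. The 3 were thus picked for the motif. Spib, another marker gene, held none of the hexamers searched here and is not shown. Each sequence is the stretch of 250 bases before the gene's RefSeq start, read 5′ to 3′ on the gene's strand (GRCm38.p6). Capitals mark CAGGTG or its reverse complement CACCTG. Siglech encodes a sialic-acid-binding receptor that restrains interferon output, at chr7:55767934-55768183 on the plus strand. Klk1 encodes a kallikrein protease, at chr7:44225110-44225359 on the plus strand. Ccr9 encodes the receptor for the gut and thymus chemokine CCL25, at chr9:123766961-123767210 on the plus strand.
Siglech: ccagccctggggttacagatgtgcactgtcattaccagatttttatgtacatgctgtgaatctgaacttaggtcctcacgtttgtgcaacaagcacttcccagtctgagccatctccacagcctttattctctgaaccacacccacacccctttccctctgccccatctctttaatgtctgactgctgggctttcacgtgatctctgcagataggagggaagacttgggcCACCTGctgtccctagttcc
Klk1: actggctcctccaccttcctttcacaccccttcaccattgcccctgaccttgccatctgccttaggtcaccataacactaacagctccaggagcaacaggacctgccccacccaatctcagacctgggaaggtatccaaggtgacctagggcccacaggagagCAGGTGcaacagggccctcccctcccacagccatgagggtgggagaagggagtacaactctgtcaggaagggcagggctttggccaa
Ccr9: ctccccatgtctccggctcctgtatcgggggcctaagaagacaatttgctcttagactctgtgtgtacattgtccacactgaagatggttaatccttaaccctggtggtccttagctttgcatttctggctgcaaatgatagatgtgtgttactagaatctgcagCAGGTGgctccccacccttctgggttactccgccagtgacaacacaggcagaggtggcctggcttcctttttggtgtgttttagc
The same window was searched, on both strands, for CAGGTG, for the palindrome CAGCTG and for GAGGAA, a core that ETS factors such as SPI-B can bind. Of the 20 genes highest in pDCs relative to other immune cells (named below), 14 matched the table, with 17 promoters. Siglech, a gene of the rule, was among them. CAGGTG was found in 6 of these 17 (35.3%), against 17.3% of all 32536 promoters. CAGCTG was found in 2 of 17 (11.8%), against 13.1% of all promoters. GAGGAA was found in 5 of 17 (29.4%), against 23.4% of all promoters. A match describes the letters and not a bound site.

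The chosen cells carried a median of 13856 UMIs and 3668 genes. Median depth was 13843 UMIs in knockout pDCs and 13957 UMIs in control pDCs. The lowest, median and highest Siglech counts were 3, 27 and 58 UMIs in knockout pDCs and 3, 24.5 and 46 UMIs in control pDCs. At the edge of the rule, 3 cells had exactly 3 Siglech UMIs, and 5 cells with 2 Siglech UMIs met every other limit. A further 45 cells with the Siglech and Tcf4 minimums had an Epcam UMI (37 knockout, 8 control), 12 had a Cd3e UMI and 13 exceeded the C1q limit, all 13 in the knockout library, and some cells broke more than 1 limit. Ccr9, Klk1 and Cox6a2 together had a median of 52.0 UMIs per 10000 in the chosen cells and 41.4 in those left out for Epcam. A Siglech UMI was seen in 0.697% of T cells, at a median depth of 7371 UMIs, in 0.807% of macrophages at 17600 UMIs and in 0.175% of tumour cells at 38847 UMIs.

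In 4 pDCs the count exceeded 30000 UMIs, 1 in the knockout library and 3 in the control library. The other cells reached at most 22777 UMIs (knockout) and 19827 UMIs (control). These 4 cells held 3.38% of knockout and 42.4% of control pDC UMIs. Their summed pDC identity genes were lower than in the cells at large, at 92.5 UMIs per 10000 in the knockout cell and 70.2 to 88.0 in the 3 control cells, against medians of 339 in all knockout pDCs and 288 in all control pDCs. Markers of other cell types were high in them: 15.7 UMIs per 10000 of tumour epithelial markers in the knockout cell, 12.4 and 12.1 in 2 control cells, and 188 of fibroblast markers in the third control cell. One control cell also held 46.5 UMIs per 10000 of cell cycle genes. Of the 4, Scrublet called 2 doublets, 1 in each library. List comparisons of knockout with control pDCs are therefore also given without these 4 cells, as are most single genes, an alternative chosen after seeing the data.

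The share of pDCs was larger in the knockout library. They made up 1.16% of filtered knockout-library cells (0.925 to 1.44%) and 0.258% of filtered control-library cells (0.158 to 0.398%), a log2 ratio of 2.17 (1.45 to 2.96) or 4.51-fold. Among cells with a Ptprc UMI and no Epcam UMI, a denominator that leaves out most tumour cells, they were 2.38% in the knockout library (80 of 3361) and 0.704% in the control library (20 of 2841), a log2 ratio of 1.76 (1.04 to 2.54). Ptprc encodes the pan-leukocyte protein CD45.

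Several other classes also took a larger share of knockout Ptprc-positive cells, and macrophages a smaller one. Type 1 conventional dendritic cells (cDC1), which cross-present antigen to CD8 T cells, made up 1.34% in the knockout library and 0.528% in the control library. Type 2 cells (cDC2) made up 1.76% in the knockout library and 0.704% in the control library. Mature dendritic cells made up 0.833% in the knockout library and 0.422% in the control library, a log2 ratio of 0.98 whose interval, -0.04 to 2.09, included 0. B cells made up 0.565% in the knockout library (19 cells) and 0.176% in the control library (5 cells), and T cells 23.1% in the knockout and 15.9% in the control library. Macrophages made up 24.0% in the knockout library and 42.0% in the control library. As a share of all dendritic cells counted, pDCs were 34.9% in the knockout library (81 of 232) and 28.2% in the control library (20 of 71), with a log2 ratio of 0.31 whose interval, -0.41 to 1.09, included 0. Which mCherry fraction was loaded, and in what proportion, is not stated, and shares can move with it. With 1 library per group, the sort and the genotype cannot be told apart.

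**Figure D1:**
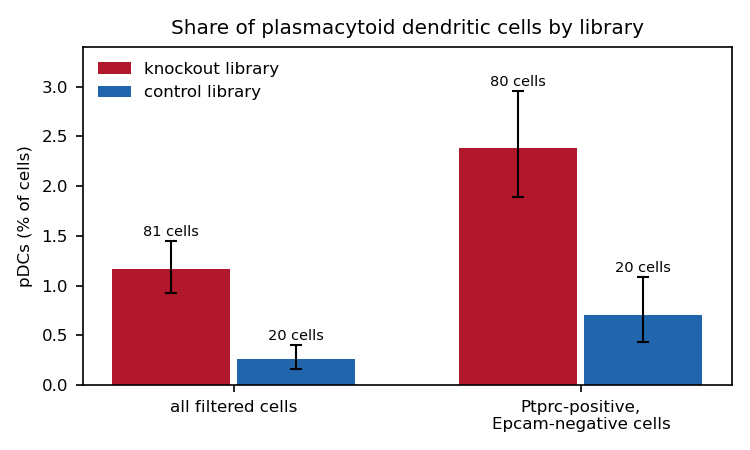
Share of pDCs (% of cells, exact 95% binomial interval) among all filtered cells and among Ptprc-positive, Epcam-negative cells, with the number of pDCs above each bar. The knockout bars, 1.16% and 2.38%, stand above the control bars, 0.258% and 0.704%.

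The cells matched their label on genes that the rule did not use, although every gene of chosen cells is tied to the choice, so these levels are a description. Bst2, a tetherin that also tunes interferon output, was found in 99.01% of pDCs, with 2300.4 CPM in knockout and 1589 CPM in control pDCs, a log2 ratio of 0.53, and 0.33 without the 4 deepest cells. Its detection was not particular to pDCs. A Bst2 UMI was seen in 97.0% of tumour cells, 86.8% of cDC1, 84.0% of cDC2, 83.4% of macrophages and 81.1% of mature dendritic cells. It was seen in 48.9% of T cells and 0% of B cells. Ccr9 was found in 96.0% of pDCs, Klk1 in 99.01% and Cox6a2, a cytochrome oxidase subunit otherwise typical of muscle, in 90.1%. Pooled over both libraries, Ccr9 stood at 1839 CPM in pDCs, against 13.4 CPM in cDC1, 6.80 CPM in cDC2 and 19.6 CPM in T cells. Cox6a2 stood at 884 CPM in pDCs and was at 0 in cDC1, cDC2 and B cells. Irf8, a transcription factor shared with cDC1, stood at 1707 CPM in pDCs and 1724 CPM in cDC1.

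Of 35 identity genes with at least 50 UMIs, 26 were at least 4-fold above other Ptprc-positive, Epcam-negative cells in both libraries, where 5.88% of all 4694 genes tested were. The choice of the cells fixes much of this count. The 20 genes with the highest smaller ratio of the 2 libraries were Klk1, Grm8, Siglech, Cox6a2, Ccr9, Klk1b27, Gm21762, Mzb1, Cacna1e, Sh3bgr, Spib, Tmem108, Dntt, Gm12253, Smim5, Paqr5, Atp2a1, Klk4, Pacsin1 and Gm12649. They included another pair of kallikreins (Klk1b27, Klk4), the glutamate receptor gene Grm8, the calcium channel gene Cacna1e and the calcium pump gene Atp2a1. Klk1 led with a log2 ratio of 7.68 in the knockout and 10.12 in the control library, and Gm12649 closed the list with 5.69 in the knockout and 6.27 in the control library. The ratio was taken after adding 1 CPM to each level. Siglech is a gene of the rule, so its place in the list was set by the choice.

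The ETS factor gene Spib had 213 CPM in knockout and 143 CPM in control pDCs (log2 ratio 0.57), and 216 CPM in knockout against 239 CPM in control pDCs without the deepest cells (-0.15, -0.59 to 0.31). Of the other classes in the plot of levels by class, B cells had the most Spib, at 50.5 CPM. Mzb1, an endoplasmic reticulum protein that aids antibody secretion, stood at 299 CPM in pDCs and 208 CPM in B cells, and at 0 in cDC1, cDC2 and mature dendritic cells. Dntt, the lymphoid DNA polymerase that adds bases at joints of antigen receptor genes, was found in 68.3% of pDCs. Runx2, a transcription factor that pDCs of mice need to leave the bone marrow, stood at 1047 CPM in pDCs and 438 CPM in T cells. Ly6d, a surface marker of lymphoid progenitors, was rare, with 72 UMIs in 10 knockout pDCs and 0 UMIs in control pDCs.

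Some defining markers of other cells were at 0 in the pDCs: 3 of 6 B and plasma cell markers, among them Ms4a1 and Cd79a, 3 of 6 NK cell markers (Ncr1, Klrb1c and Eomes), 3 of 6 cDC1 markers (Xcr1, Tlr3 and Itgae) and 1 of 6 cDC2 markers (Fcer1a). The other markers of these lists were detected. The summed NK list ranged from 0 to 11.2 UMIs per 10000 in knockout and from 0 to 8.54 in control pDCs. The B and plasma cell list ranged from 0 to 2.87 in knockout and from 0 to 25.8 in control pDCs, with 1 control cell above 25. The cDC2 list ranged from 0 to 45.0 in knockout and from 0.891 to 9.58 in control pDCs, with medians of 3.37 in knockout and 3.43 in control pDCs. The summed list of 6 T cell markers ranged from 0 to 6.43 UMIs per 10000 in knockout pDCs and from 0 to 4.03 in control pDCs. Cadm1, an adhesion molecule often used for cDC1, was an exception at 993 CPM in pDCs against 424 CPM in cDC1. The cDC1 list ranged from 0 to 81.7 in knockout and from 2.56 to 69.7 in control pDCs.

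**Figure D2:**
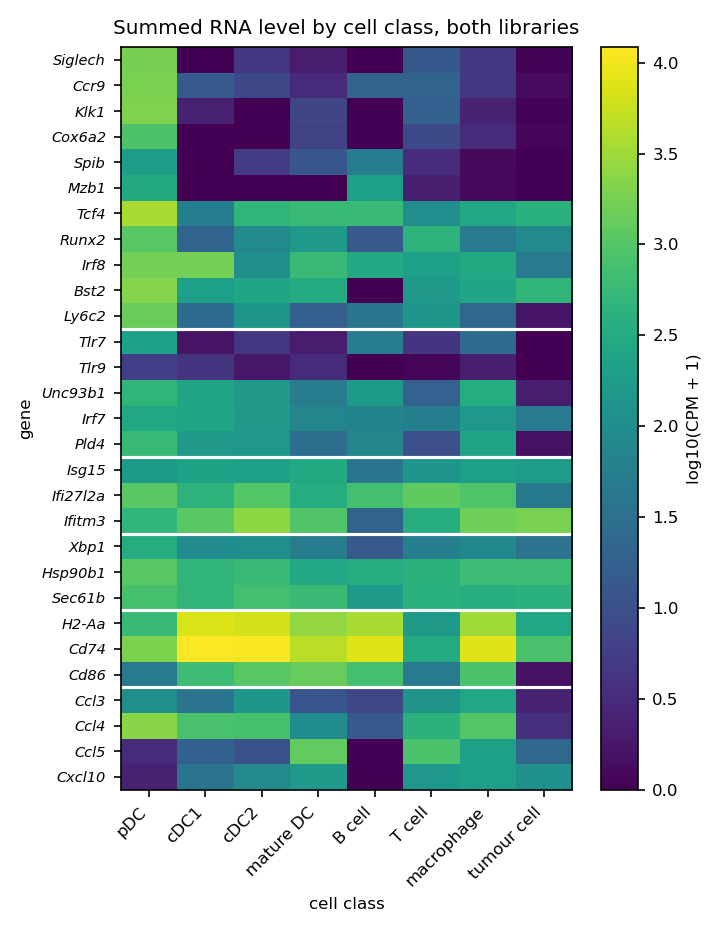
Summed RNA level, log10 of CPM plus 1, of 29 genes (rows, grouped by role) in pDCs and 7 other classes (columns), both libraries pooled. The identity genes at the top are brightest in the pDC column, apart from Irf8 (1707 CPM in pDCs, 1724 CPM in cDC1), whereas H2-Aa and Cd74 are darker there than in cDC1 and cDC2.

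Levels of identity genes overlapped widely between the libraries. Klk1 had a lowest, median and highest value of 0, 19.8 and 111 UMIs per 10000 in knockout pDCs and 0.871, 16.9 and 54.9 in control pDCs. Ccr9 ran through 0, 18.9 and 45.5 in knockout pDCs and 1.77, 19.0 and 35.1 in control pDCs. For both genes the control cells lay inside the range of the knockout cells. The identity list had a median log2 ratio, knockout over control, of 0.60, with 19 genes at least 1.5-fold higher and 1 lower of 35. Without the 4 deepest cells the median was 0.04, with 3 higher and 4 lower of 34.

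Across all 4694 genes, 15.1% were at least 1.5-fold higher and 12.7% at least 1.5-fold lower in knockout pDCs, and the median log2 ratio was 0.06. Without the 4 deepest cells, 12.6% of 4163 genes were higher and 9.78% lower, with a median of 0.02. These shares are the background for every list below. A gene at 0 in a library enters a list at its bound against 3 UMIs.

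Ly6c2, a surface protein carried by mouse pDCs, differed with and without the deepest cells. It had 0, 14.8 and 53.2 UMIs per 10000 (lowest, median, highest) in knockout pDCs and 0.708, 6.22 and 26.4 in control pDCs. Its log2 ratio was 1.31, and 0.64 (0.45 to 0.83) without the 4 deepest cells. Plac8, a small cysteine-rich protein gene high in pDCs, had 3373 CPM in knockout and 1804 CPM in control pDCs (0.90, and 0.35 without those cells). Without them, Dntt stood at 146 CPM in knockout and 258 CPM in control pDCs (-0.82, interval -1.27 to -0.36), and Cd209d, a C-type lectin gene, at 56.9 CPM in knockout and 225 CPM in control pDCs (-1.99, -2.55 to -1.41). With all cells Dntt was at -0.28 (-0.70 to 0.16) and Cd209d at -1.24. Blnk, a signalling adaptor best known from B cells, changed sign. It had 1173 CPM in knockout and 1042 CPM in control pDCs with all cells (0.17), and 1201 CPM in knockout and 1638 CPM in control pDCs without the deepest (-0.45, -0.62 to -0.27).

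**Figure D3:**
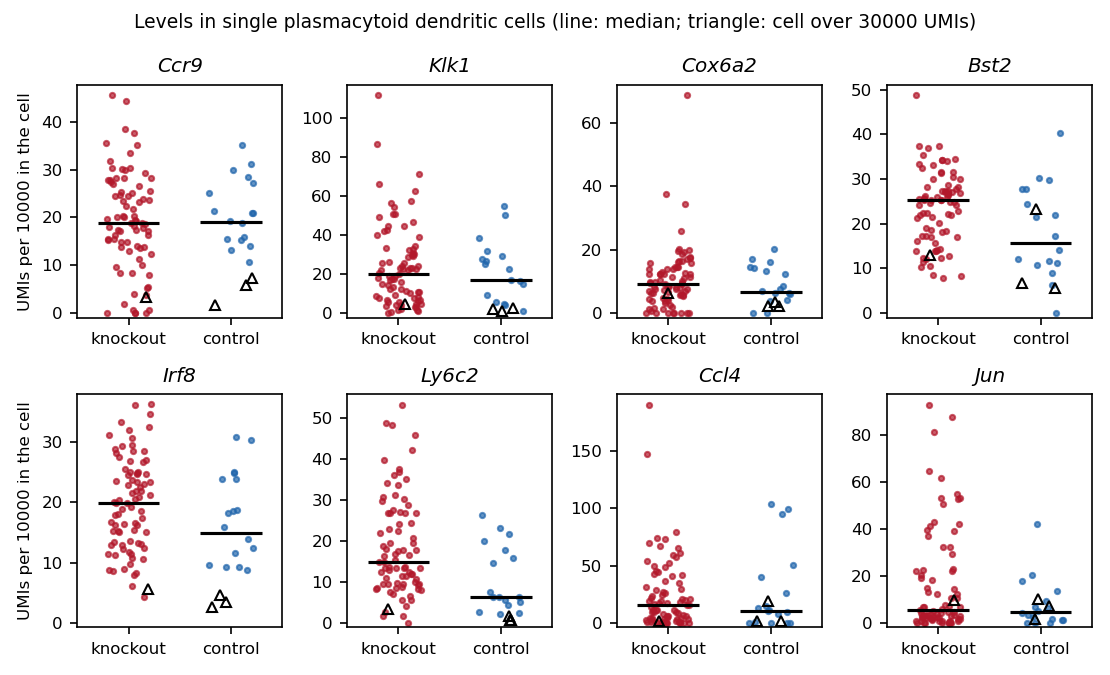
UMIs per 10000 in single pDCs for 8 genes (panels), knockout left (81 cells) and control right (20 cells); lines are medians and open triangles cells over 30000 UMIs. Knockout and control cells overlap in every panel, and the triangles lie low for Ccr9, Klk1, Irf8 and Ly6c2.

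Tlr7, the receptor for single-stranded RNA, had 246 CPM in knockout pDCs and 117 CPM in control pDCs, and was found in 78.2% of all pDCs. In other classes it stood at 50.5 CPM in B cells, 25.4 CPM in macrophages and 0.669 CPM in cDC1. Tlr9, the receptor for unmethylated DNA, stood at 4.71 CPM in pDCs, with a UMI in 7 of 101 cells.

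Downstream genes were present. Unc93b1, the chaperone that carries these receptors to endosomes, had 518 CPM in knockout and 353 CPM in control pDCs (log2 ratio 0.55), and -0.07 (-0.36 to 0.22) without the deepest cells. Irf7, the master factor of interferon-alpha transcription, had 300.3 CPM in knockout and 241 CPM in control pDCs, and Irf5, a factor for inflammatory cytokines, had 65.8 CPM in knockout and 21.2 CPM in control pDCs (1.63, and 1.08 with an interval of -0.03 to 2.45 without the deepest cells). Of 18 sensing genes, 5 were at least 1.5-fold higher and 0 lower in knockout pDCs, with a median log2 ratio of 0.19. Without the 4 deepest cells 1 was higher and 1 lower of 16, with a median of -0.05. Tlr7 then had a log2 ratio of 0.43 (-0.05 to 0.94) and Irf7 of -0.12 (-0.50 to 0.27), and both intervals included 0.

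Type I and III interferon RNA was near the detection limit. Of 20 such genes, 19 had 0 UMIs in the 101 pDCs. Ifnk alone had a signal, with 4 UMIs in 3 cells. Taking 3 counts as the limit of a count of 0, the 1485934 pDC UMIs allow up to 2.02 CPM, and 0 of 101 cells allows a share of up to 2.97% of cells with a UMI. Ifnb1, for interferon-beta, had 55 UMIs in all barcodes of the knockout library and 75 in those of the control library, none in pDCs. Ifng, for the interferon of T and NK cells, had 2775 UMIs in the knockout library and 1555 in the control library, and 0 in pDCs.

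The receptor for type I interferon was well detected in pDCs. Ifnar1 stood at 398 CPM in pDCs, against 120 CPM in cDC2, 112 CPM in T cells and 22.5 CPM in tumour cells. Ifnar1 had 418 CPM in knockout and 340 CPM in control pDCs, and Ifnar2, the other chain, had 914 CPM in knockout and 618 CPM in control pDCs. Their log2 ratios were 0.30 for Ifnar1 and 0.56 for Ifnar2, and -0.25 (-0.55 to 0.06) and 0.18 (-0.05 to 0.41) without the deepest cells. Of 13 receptor and signalling genes, 3 were at least 1.5-fold higher and 0 lower, and 2 higher and 0 lower without the deepest cells.

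Interferon-stimulated RNA was present in every pDC. The 48 measured genes of the list summed to a median of 57.6 UMIs per 10000, with a lowest of 14.4 and a highest of 149. The median was 60.9 in knockout pDCs (81 cells) and 52.3 in control pDCs (20 cells), with quartiles of 44.9 to 77.1 in knockout and 37.9 to 82.3 in control pDCs. The pooled median lay below that of cDC2 (67.5) and above those of macrophages (53.7), cDC1 and tumour cells (both 39.1), T cells (29.8), mature dendritic cells (27.7) and B cells (16.03). Within libraries this order held only in part. Knockout macrophages stood at 65.9, above knockout pDCs, and control macrophages at 46.3, below control pDCs. Control cDC1 stood at 53.2, above control pDCs, and knockout cDC1 at 38.2, below knockout pDCs. After thinning each cell to 2000 UMIs the pDC median was 60 and that of cDC2 70. Thinned knockout macrophages had 65 against 60 in knockout pDCs, and thinned control cDC1 had 60 against 62.5 in control pDCs. The sum includes Bst2, which pDCs carry constitutively. The list summed to 6253 CPM in knockout and 6106 CPM in control pDCs. Bst2, at the CPM given above, was a large part of that. The order of the classes without Bst2 was not tested.

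**Figure D4:**
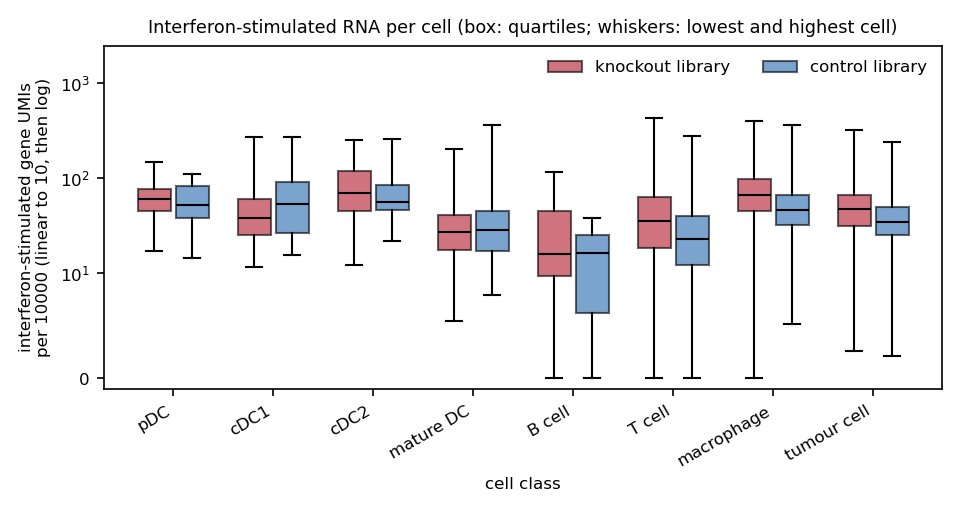
Summed interferon-stimulated gene UMIs per 10000 in each cell, by class, knockout left and control right in each pair (boxes are quartiles, whiskers the lowest and highest cell; the axis is linear to 10 and logarithmic above). The pDC medians are 60.9 (knockout) and 52.3 (control), and the boxes overlap.

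Between libraries the interferon-stimulated list as a whole had a median near 0 in pDCs. Of 25 genes with at least 50 UMIs, 3 were at least 1.5-fold higher and 5 lower in knockout pDCs, with a median log2 ratio of -0.04. Without the 4 deepest cells 5 were higher and 3 lower of 22, with a median of 0.03. With Epcam-positive cells admitted the median was -0.71, and over the 12 other alternatives it ran from -0.13 to 0.12. In the same list the median was 0.51 in T cells, 0.54 in macrophages and 0.48 in tumour cells. It was -0.44 in cDC1, -0.25 in cDC2 and -0.74 in mature dendritic cells. Differences between these classes were not tested.

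Some genes of the list changed sign with the deepest cells left out, and others did not. Isg15, a ubiquitin-like protein and early response gene, had 144 CPM in knockout pDCs and 231 CPM in control pDCs with all cells (log2 ratio -0.68). Without the deepest cells it had 133 CPM in knockout and 18.4 CPM in control pDCs, a log2 ratio of 2.86 (1.47 to 4.75). An Isg15 UMI was found in 30 of 81 knockout and 6 of 20 control pDCs. Ifitm3, which blocks viral fusion, had 332 CPM in knockout and 965 CPM in control pDCs (-1.54), and 207 CPM in knockout against 36.8 CPM in control pDCs without the deepest cells (2.49). Oasl2, an antiviral OAS-like protein, kept its sign, with 56.8 CPM in knockout and 26.5 CPM in control pDCs (1.10), and 53.2 CPM in knockout and 4.60 CPM, or 1 UMI, in control pDCs without them (3.53, 1.00 to 8.86). With Epcam-positive cells admitted Oasl2 was at -0.78. Ifi44 also kept its sign, at -0.37 with all cells and -0.65 (-1.11 to -0.18) without the deepest.

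Of GTPases induced mainly by interferon-gamma, 5 of 6 were at least 1.5-fold higher in knockout pDCs once the deepest cells were left out, while per-cell medians lay close together. Per cell, with all cells kept, the summed list had a median of 3.49 UMIs per 10000 in knockout pDCs (quartiles 1.60 to 5.82, highest 58.6) and 3.38 in control pDCs (1.03 to 6.45, highest 16.1). The 5 highest cells held 37.6% of the list's 705 UMIs in knockout pDCs and 75.1% of its 233 UMIs in control pDCs. The list's median log2 ratio was 0.31 over 7 genes (3 higher, 1 lower) and 1.15 over 6 genes without those cells (5 higher, 0 lower). Irgm1, one of these GTPases, then had 64.4 CPM in knockout and 13.8 CPM in control pDCs (2.22, 0.61 to 4.53), against 0.87 with all cells. Ifi47, another such GTPase, had 108 CPM in knockout and 46.0 CPM in control pDCs (1.23, 0.30 to 2.33), the same with all cells. Gbp7, a guanylate-binding protein, had 67.2 CPM in knockout and 32.2 CPM in control pDCs (1.06, -0.06 to 2.43), against 0.31 with all cells. Counts were small, and 13.8 CPM is 3 UMIs in the 17 control cells left.

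MHC class II RNA was lower than in cDC1 and cDC2, with a median of 31.7 UMIs per 10000 in pDCs, against 320 in cDC1, 292 in cDC2 and 177 in B cells. Mature dendritic cells were nearer, with a median of 52.0. Their quartiles, 12.8 to 142, overlapped those of pDCs, 12.3 to 58.1. Of the 7 MHC class II genes tested, 2 were at least 1.5-fold lower and 0 higher in knockout pDCs, at a median log2 ratio of -0.45. Without the deepest cells 3 were lower and 0 higher, at a median of -0.49. H2-Eb1, a class II beta chain, had 204 CPM in knockout and 428 CPM in control pDCs without them (-1.07, -1.42 to -0.70). H2-DMb1, which helps to load peptides, had 49.5 CPM in knockout and 129 CPM in control pDCs (-1.38, -2.07 to -0.67). H2-Aa, a class II alpha chain, had 524 CPM in knockout and 736 CPM in control pDCs (-0.49, -0.75 to -0.23). Per cell, the summed list overlapped fully, from 3.80 to 155 in knockout and from 6.38 to 118 in control pDCs, with medians of 31.7 in knockout and 30.1 in control pDCs. In other classes, the class II list had a median log2 ratio of -0.46 in cDC2, with 3 of 9 genes lower and 0 higher. It was -0.28 in tumour cells, 0.02 in cDC1, 0.09 in B cells and 0.22 in mature dendritic cells. In macrophages it was 0.50 and in T cells 1.42. Cd86, a costimulatory ligand, was low at 45.1 CPM in pDCs against 1077 CPM in cDC2.

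MHC class I genes had a median log2 ratio of 0.28 over 14 genes (2 higher, 1 lower), and 0.39 over 13 without the deepest cells (4 higher, 0 lower). The peptide transporter genes Tap1 and Tap2 then had log2 ratios of 1.56 (0.38 to 3.04) and 2.91 (1.00 to 5.98), against 0.75 and 1.44 with all cells. Tap1 stood at 81.2 CPM in knockout and 27.6 CPM in control pDCs, and Tap2 at 69.1 CPM in knockout and 9.20 CPM in control pDCs. H2-Q7, a non-classical class I gene, stood at 74.7 CPM in knockout and 18.4 CPM in control pDCs without the deepest cells (2.02, 0.61 to 3.93). With all cells it stood at 81.2 CPM in knockout and 82.2 CPM in control pDCs (-0.02, -0.62 to 0.62). Without the deepest cells, the control levels of Tap1, Tap2 and H2-Q7 rest on few UMIs in the 17 control cells left.

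Genes for T cell contact were few. Cd274, the gene of the checkpoint ligand PD-L1, had 80.3 CPM in knockout and 29.2 CPM in control pDCs (log2 ratio 1.46), and 81.2 CPM in knockout against 13.8 CPM in control pDCs without the deepest cells (2.56, 0.96 to 4.86). It was found in 26 of 81 knockout and 5 of 20 control pDCs. Lag3, an inhibitory receptor for MHC class II, had 54 UMIs in knockout and 4 UMIs in control pDCs (2.20, and 1.45 with an interval of 0.01 to 3.38 without the deepest cells). Of 5 genes of this list, 3 were higher and 0 lower, with and without the deepest cells.

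Ccl4, a chemokine that draws T and NK cells, was detected in most pDCs. It was found in 87.1% of pDCs and stood at 2324 CPM, against 1000.2 CPM in macrophages, 806 CPM in cDC1 and 428 CPM in T cells. Its lowest, median and highest values were 0, 15.8 and 190 UMIs per 10000 in knockout pDCs and 0, 10.8 and 104 in control pDCs. The log2 ratio was 0.50, and 0.04 (-0.09 to 0.18) without the deepest cells. Ccl5, which also draws T cells, was at 2.02 CPM in pDCs against 1272 CPM in mature dendritic cells, and Cxcl10, a CXCR3 ligand, at 1.35 CPM against 164 CPM. Il12a, a subunit of interleukin-12, stood at 43.7 CPM in pDCs and at 0 in cDC1, cDC2 and mature dendritic cells. It had 58 UMIs in knockout and 7 UMIs in control pDCs (log2 ratio 1.49, and 1.23 with an interval of -0.07 to 2.91 without the deepest cells). Tnf, an inflammatory cytokine, had 51 UMIs in knockout and 3 UMIs in control pDCs (log2 ratio 2.53, and 1.79 without the deepest cells). With Epcam-positive cells admitted the Tnf ratio was 0.89, and 0.09 with the cells over 30000 UMIs also left out.

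Secretory pathway genes, which fold and export proteins, were high in pDCs. Their sum had a median of 75.3 UMIs per 10000 in pDCs, against 49.0 in cDC2, 41.2 in tumour cells and 24.4 in B cells. Xbp1, the transcription factor of the unfolded protein response, stood at 338 CPM in pDCs and 107 CPM in cDC2. Between libraries the 18 genes had a median log2 ratio of 0.32 (3 higher, 0 lower), and 0.19 (1 higher, 0 lower) without the deepest cells.

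Homing and adhesion genes had a median near 0 once the deepest cells were left out. Of 16 genes, 4 were higher and 1 lower with a median log2 ratio of 0.43, and 0 higher and 2 lower of 15 with a median of -0.05 without those cells. Itgb1, the integrin beta-1 chain, had 169 CPM in knockout and 379 CPM in control pDCs (-1.17), and -0.46 (-0.92 to 0.02) without the deepest cells. Itga4, its alpha-4 partner, changed sign, with 516 CPM in knockout and 456 CPM in control pDCs with all cells (0.18, -0.07 to 0.43), and 533 CPM in knockout and 782 CPM in control pDCs without the deepest (-0.55, -0.80 to -0.30).

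Immediate-early and heat-shock genes, which tissue digestion can raise, stood higher in knockout pDCs. Of 17 genes, 10 were at least 1.5-fold higher and 2 lower (median log2 ratio 1.07). Without the deepest cells 10 of 15 were higher and 0 lower (median 0.83). Fos, a subunit of the AP-1 factor, had 0, 8.58 and 77.7 UMIs per 10000 (lowest, median, highest) in knockout pDCs and 0, 1.27 and 95.4 in control pDCs. Its log2 ratio was 1.47, and 1.13 (0.90 to 1.37) without the deepest cells. Jun, its partner, had a median of 5.55 in knockout and 4.79 in control pDCs, and a log2 ratio of 1.31, and 1.26 without the deepest cells. Dusp1, a phosphatase of stress kinases, had 241 UMIs in knockout and 19 UMIs in control pDCs (2.11, and 2.20 without the deepest cells). With Epcam-positive cells admitted, the list's median was 0.06, and 0.51 with them admitted and cells over 30000 UMIs left out. In other classes the same list had medians of -0.63 in cDC1, -0.11 in cDC2, -0.50 in mature dendritic cells, 0.39 in B cells (4 of 8 higher, 0 lower), -0.19 in T cells, 0.25 in macrophages and -0.38 in tumour cells. The part of digestion in the other pDC lists was not tested.

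Genes of transitional dendritic cells, which sit between pDCs and cDC2, had a median log2 ratio of -0.71 over 10 genes (2 higher, 5 lower). Without the deepest cells the median was 0.24 over 9 genes (3 higher, 0 lower). S100a6, a calcium-binding protein, had 510 CPM in knockout and 2989 CPM in control pDCs, and 342 CPM in knockout against 299 CPM in control pDCs without those cells. Vim, the intermediate filament vimentin, had 345 CPM in knockout and 1637 CPM in control pDCs with all cells, and 258 CPM in knockout against 198 CPM in control pDCs without the deepest. Cell cycle RNA was low, with a median of 1.26 UMIs per 10000. Of its 3 genes tested, 0 were higher and 2 lower, and 1 gene was left without the deepest cells, at -0.02.

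**Figure D5:**
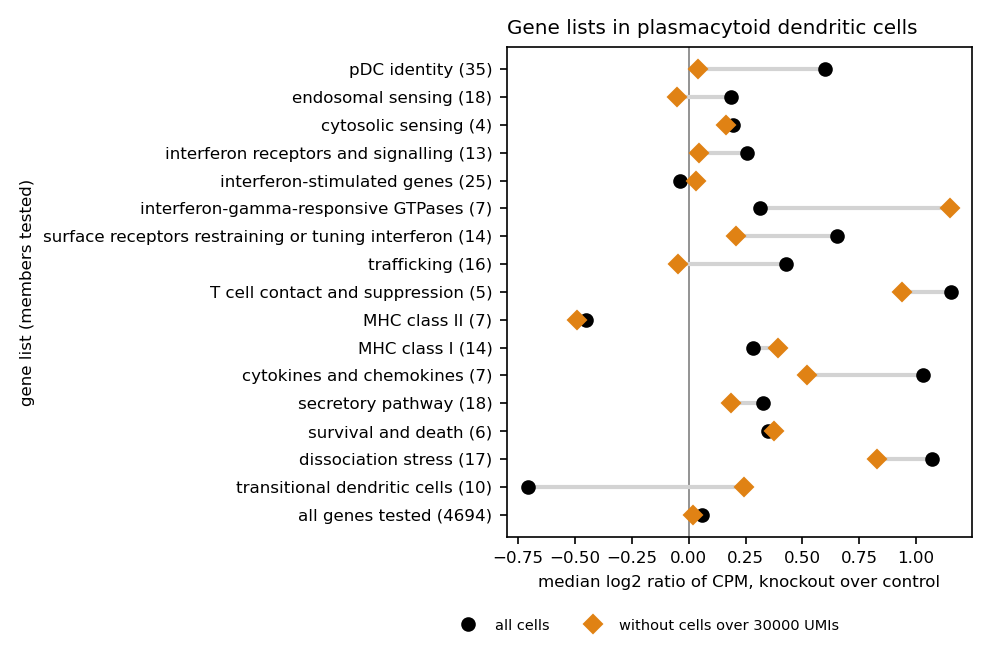
Median log2 ratio of CPM, knockout over control, in pDCs for each gene list with at least 4 tested genes, with all cells (circles) and without cells over 30000 UMIs (diamonds). MHC class II stays below 0 and dissociation stress above 0 in both, whereas transitional dendritic cell genes change side.

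By the fixed rule of size, the 10 genes lowest in knockout pDCs were Col1a1, Tnc, Col1a2, Col3a1, Postn, Bnc2, Bgn, Meg3, Nav3 and Mgp, with at least 85.3% of each gene's UMIs in 1 control cell. They include collagens and matrix proteins of fibroblasts. The 10 highest were Fabp4, Hspa1a, Ly6d, Lrg1, Hdac9, Dusp1, Klf4, Cdh22, S100a9 and Grasp. Of these, Fabp4 (100% of 191 UMIs), Lrg1 (96.8%) and S100a9 (91.2%) also came from 1 cell. The fibroblast markers summed to at most 0.671 UMIs per 10000 in knockout pDCs and 188 in control pDCs, neutrophil markers to at most 59.6 in knockout and 0.894 in control pDCs, and endothelial markers to at most 28.1 in knockout and 7.24 in control pDCs. Spread over more cells were Hdac9, a histone deacetylase, with 201 UMIs in knockout and 11 UMIs in control pDCs (log2 ratio 2.64, and 1.88 without the deepest cells), and Klf4, a zinc-finger transcription factor, with 177 UMIs in knockout and 14 UMIs in control pDCs (a log2 ratio of 1.74 without the deepest cells).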

How the data were processed

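Single-cell RNA was measured in 2 libraries, 1 per group. The deposited matrix holds UMI counts for 32285 genes. The submitters' processing notes name Cell Ranger 2.1.1 and mm10, and per the file header the matrix came from Cell Ranger 6.0.1, so the version is uncertain. Suffix 1 was taken as control and suffix 2 as knockout from the library numbers in the labels. No doublets were removed in the main values. Scrublet in scanpy 1.11.5 called 201 knockout and 217 control barcodes.

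UMIs were summed per library and class and scaled to CPM. Genes with at least 50 UMIs in pDCs were compared as log2 ratios, with no test. Intervals were Clopper-Pearson for shares, Poisson for CPM levels and conditional binomial for log2 ratios. The log2 ratio interval was run on simulated Poisson counts. These held no spread between cells, so the run could not check the interval under such spread. Intervals of levels and ratios are too narrow for genes whose level varies between cells, as where 1 cell holds many UMIs. Comparison classes were set by UMI limits on marker genes: Cd3e (T), Cd79a and Ms4a1 (B), Xcr1 and Clec9a (cDC1), Cd209a (cDC2), Ccr7 and Fscn1 (mature), C1q (macrophage) and Epcam (tumour). Genes were named as list members, as the 20 highest over other immune cells, or as the 10 highest and 10 lowest in knockout pDCs past 2-fold by the interval bound nearest 0. Members and lists were chosen with earlier results of these data known. Promoters came from RefSeq. Calculations used scipy 1.17.1 and numpy 2.4.6 under Python 3.11.15, and plots matplotlib 3.10.9. Some genes are not reported here.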

Additional observations from a re-analysis of the deposited data

How the results depend on the processing

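Both pDC shares stayed within their intervals in every alternative run (other Siglech, Tcf4, depth, mitochondrial and Epcam limits, doublets removed, thinning to 2000 UMIs, and no cells over 30000 UMIs). Of 207 list medians recomputed over 16 lists and 13 alternatives, 184 stayed near the main value. Near means within the median reach, to either side, of the intervals of the list's single genes. This reach is not the error of a list median. Without cells over 30000 UMIs the identity list moved from 0.60 to 0.04. The 17th list, of interferon-stimulated genes, ran from -0.71 (no Epcam limit) to 0.12 (a mean over cells), against -0.04. The number of genes at least 1.5-fold higher and lower in knockout pDCs was 1204 and 1436 with a minimum of 20 UMIs per gene, and 403 and 224 with a minimum of 100, against 711 and 594 at 50. The cause was not tested, beyond the count minimum itself changing which genes enter.

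Some log2 ratios changed sign. With called doublets removed the cell cycle median was 0.18 and Isg15 0.026. As a mean over cells Isg15 was 0.47. Without cells over 30000 UMIs, the transitional list was at 0.24, Isg15 at 2.86, Ifi27l2a at -0.10, Ifitm3 at 2.49, Vim at 0.38 and S100a6 at 0.19. In the same setting the medians of the sensing list and of the homing and adhesion list changed sign to -0.05 each. Spib, Blnk, Itga4, Unc93b1, Irf7 and Ifnar1 also fell below 0 there, with values given above. With no Epcam limit Oasl2 was -0.78 and Atf3 -0.29. With both changes together the transitional list was 0.34, Isg15 3.05, Ifitm3 2.60, Vim 0.62, S100a6 0.34, Klk1 -0.18, Xbp1 -0.11 and Klf4 -0.23. The Epcam and depth alternatives were chosen after seeing the data.

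No paired analysis was possible because each group has 1 library. The 20 control pDCs limit every comparison: without the deepest cells 17 remain, and a gene with 1 UMI there is at 4.602 CPM.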
